A study of Mus musculus with 16 samples.

Results

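The genes described here are *Fos*, *Fosl1*, *Fosl2*, *Jun*, *Junb*, *Jund*, *Egr1*, *Ier2*, *Ier3* and *Myc*, a set of AP-1 subunits and immediate-early genes in mouse keratinocytes. They were chosen by name, as the rows of the deposited count table that carry these symbols, and all 10 were found among the 14474 genes of the table. The cells are immortalized mouse keratinocytes (MK) grown on collagen in low-calcium medium. MKα3− cells are null for the integrin α3 gene. MKα3+ cells were made from them by expressing human α3, so both lines share the immortalized null background and the comparison rests on a single pair of lines. Each line was given full-length laminin-332 (LN332) at 0.02 mg/mL, or an equal volume of vehicle, for 16 to 24 h. The 4 groups held 4 replicates each, giving 16 libraries of poly(A) RNA. The labels do not say whether the replicates were separate cultures, and the study's methods call in vitro data points experimental replicates without more detail. The p-values measure the spread between these libraries, which may be technical.

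AP-1 is a dimer of basic leucine zipper proteins, in which a FOS family protein pairs with a JUN family protein or JUN proteins pair among themselves. *Fos*, *Jun*, *Junb*, *Egr1*, *Ier2* and *Myc* belong to the immediate-early genes, which are transcribed within minutes of a growth factor, adhesion or stress signal without new protein synthesis, and most of their mRNAs decay quickly. In keratinocytes AP-1 acts downstream of the ERK and JNK kinases on genes of proliferation, migration and differentiation, and LN332 and its receptor integrin α3β1 are known to signal to these kinases. This is background and was not measured here.

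The upstream sequences of *Fos*, *Jun* and *Junb* are shown because these genes were highest in replicate 1 of every group, as described with the replicate numbers. *Egr1* and *Ier2* were as well, but the reference used held no upstream sequence for them. RefSeq entries (GRCm38.p6, the same build as mm10) were found for 6 of the 10 genes, and 250 bases before the annotated start are given 5′ to 3′ on the strand of the gene: chr12:85473640-85473889 (+) for *Fos*, chr4:95052223-95052472 (−) for *Jun* and chr8:84978749-84978998 (−) for *Junb*. Capitals mark the half-site TGACG of a cAMP response element, the CCAAT box, the TATA box TATAAA and the AP-1-like letters TGACATCA, each searched on both strands.
Fos: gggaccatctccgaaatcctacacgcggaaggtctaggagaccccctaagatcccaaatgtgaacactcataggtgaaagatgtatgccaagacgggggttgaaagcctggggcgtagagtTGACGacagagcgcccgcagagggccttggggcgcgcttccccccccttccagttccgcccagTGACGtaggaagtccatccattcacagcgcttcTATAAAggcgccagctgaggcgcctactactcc
Jun: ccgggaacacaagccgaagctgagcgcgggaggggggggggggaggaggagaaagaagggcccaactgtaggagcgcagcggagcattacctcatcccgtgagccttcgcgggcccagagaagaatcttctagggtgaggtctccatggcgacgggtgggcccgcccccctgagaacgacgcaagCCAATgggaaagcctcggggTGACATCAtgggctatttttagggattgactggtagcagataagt
Junb: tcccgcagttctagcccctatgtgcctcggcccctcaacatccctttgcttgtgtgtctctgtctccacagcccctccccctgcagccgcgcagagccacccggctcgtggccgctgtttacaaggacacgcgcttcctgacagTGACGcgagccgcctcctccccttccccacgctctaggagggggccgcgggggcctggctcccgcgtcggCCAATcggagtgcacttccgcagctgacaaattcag
*Fos* held TGACG at bases 129 to 125 and 66 to 62 before the start and TATAAA at bases 33 to 28. *Jun* held CCAAT at bases 65 to 61 and TGACATCA at bases 45 to 38, and *Junb* held TGACG at bases 106 to 102 and CCAAT at bases 36 to 32. Among 32851 upstream windows of the same length, TGACG was found in 17.8%, CCAAT in 33.8%, TATAAA in 12.4% and TGACATCA in 2.93%. The full element TGACGTCA, which contains TGACG, was in 1.55% of windows, the AP-1 site TGANTCA in 6.75%, the E-box CACGTG in 6.02%, the EGR site GCGNGGGCG in 4.70% and the CArG box bound by SRF in 1.47%, and none of these was in the 3 windows shown. Sequence beyond these 250 bases was not searched. A match of letters is a description and says nothing of binding.

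Total counts were between 21735708 and 29338370 per library, and each of the 10 genes had between 139 and 16687 counts in every library, so no value rests on a count of 0. Levels are given as CPM, each count scaled to the size of its library after TMM normalization, and a gene was called different at an adjusted p under 0.05 with an absolute log2 fold change over 0.5 in limma-voom. All 10 keratinocyte markers were in the table and summed to between 9645 and 21465 CPM, led by *Krt14*, while *Krt15* was low at 0.504 to 10.4 CPM. Mouse *Itga3* had 4530 to 8830 counts in every library and did not tell the lines apart (log2 fold change 0.09, adjusted p = 0.694 from limma-voom in vehicle). MKα3+ cells carry human α3, so mouse *Itga3* is no check of the labels. The 5 immune cell markers measured, of 6 listed, summed to 39.8 to 87.6 CPM in vehicle-treated MKα3− cells and 102 to 352 CPM in vehicle-treated MKα3+ cells, led by *Lyz2*. With LN332 they summed to 38.9 to 101 and 57.8 to 358 CPM. These markers moved with the line, and their part in the differences between lines was not tested. Fibroblast markers summed to at most 40.7 CPM, endothelial markers to at most 6.45 CPM, and the only melanocyte marker measured, *Pmel*, to at most 3.94 CPM. The 4 libraries of replicate number 1 stood apart for several of the genes described, and the counts of these 10 genes called in each comparison are also given without them.

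Per kilobase of exon, *Jund* was the most abundant of the 10 genes, at 217 ± 59.0 CPM per kb (SD, n = 16), followed by *Junb* at 149 ± 46.9 and *Ier3* at 136 ± 24.6. *Myc* stood at 86.1 ± 23.1, *Ier2* at 41.4 ± 15.9 and *Fos* at 32.7 ± 17.6 CPM per kb. *Jun* at 16.9 ± 6.83, *Fosl1* at 12.5 ± 3.61, *Fosl2* at 12.2 ± 2.03 and *Egr1* at 9.03 ± 8.18 CPM per kb were the lowest, and their ranges over libraries overlapped. As a ratio of highest to lowest library, *Egr1* had the widest range of the set, from 1.43 to 29.2 CPM per kb, and *Fosl2* a narrow one, from 9.20 to 15.0. *Fosl1* shares 1163 exon bases with *Ccdc85b* on the opposite strand, *Jund* 877 with the antisense gene *Gm11175*, *Jun* 232 with *Junos* and *Junb* 173 with *Prdx2*. No strand setting is named for the counting, so reads of these pairs cannot be told apart and the levels of the 4 genes are uncertain to that extent.

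By Entrez gene and mm10 position, *Fos* (14281) lies at chromosome 12, 85473890 to 85477274, *Fosl1* (14283) at chromosome 19, 5447698 to 5455938, and *Fosl2* (14284) at chromosome 5, 32136472 to 32157840. *Jun* (16476) lies at chromosome 4, 95049036 to 95052222, *Junb* (16477) at chromosome 8, 84976909 to 84978748, and *Jund* (16478) at chromosome 8, 70697739 to 70700616. *Ier2* (15936) lies at chromosome 8, 84661331 to 84662852, *Ier3* (15937) at chromosome 17, 35821713 to 35822911, and *Myc* (17869) at chromosome 15, 61985341 to 61990361, and *Egr1* is Entrez gene 13653.

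The order of the group means differed between the genes. *Fosl1*, *Fosl2* and *Jun* were highest in LN332-treated MKα3+ cells, then vehicle-treated MKα3+, LN332-treated MKα3− and vehicle-treated MKα3− cells, with the highest mean 1.34, 1.30 and 1.81 times the lowest. *Fos* (2.17 times) and *Jund* (1.67 times) had vehicle-treated MKα3+ cells first, then LN332-treated MKα3+, LN332-treated MKα3− and vehicle-treated MKα3− cells. *Ier3* (1.43 times) and *Myc* (1.85 times) were highest in both LN332 groups, MKα3+ before MKα3−, and lowest in vehicle-treated MKα3− cells. *Egr1* (2.15 times) was highest in both vehicle groups and lowest in LN332-treated MKα3+ cells, *Ier2* (1.38 times) was highest in vehicle-treated MKα3+ and lowest in LN332-treated MKα3− cells, and *Junb* (1.30 times) was higher in both MKα3− groups. Neighbours in these orders overlapped for every one of the 10 genes. The gap between neighbouring means exceeded the pooled SD of the pair of groups only for *Fosl2* (places 2 and 3), *Jund* (2 and 3, and 3 and 4), and *Ier3* and *Myc* (1 and 2, and 3 and 4).

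**Figure D1:**
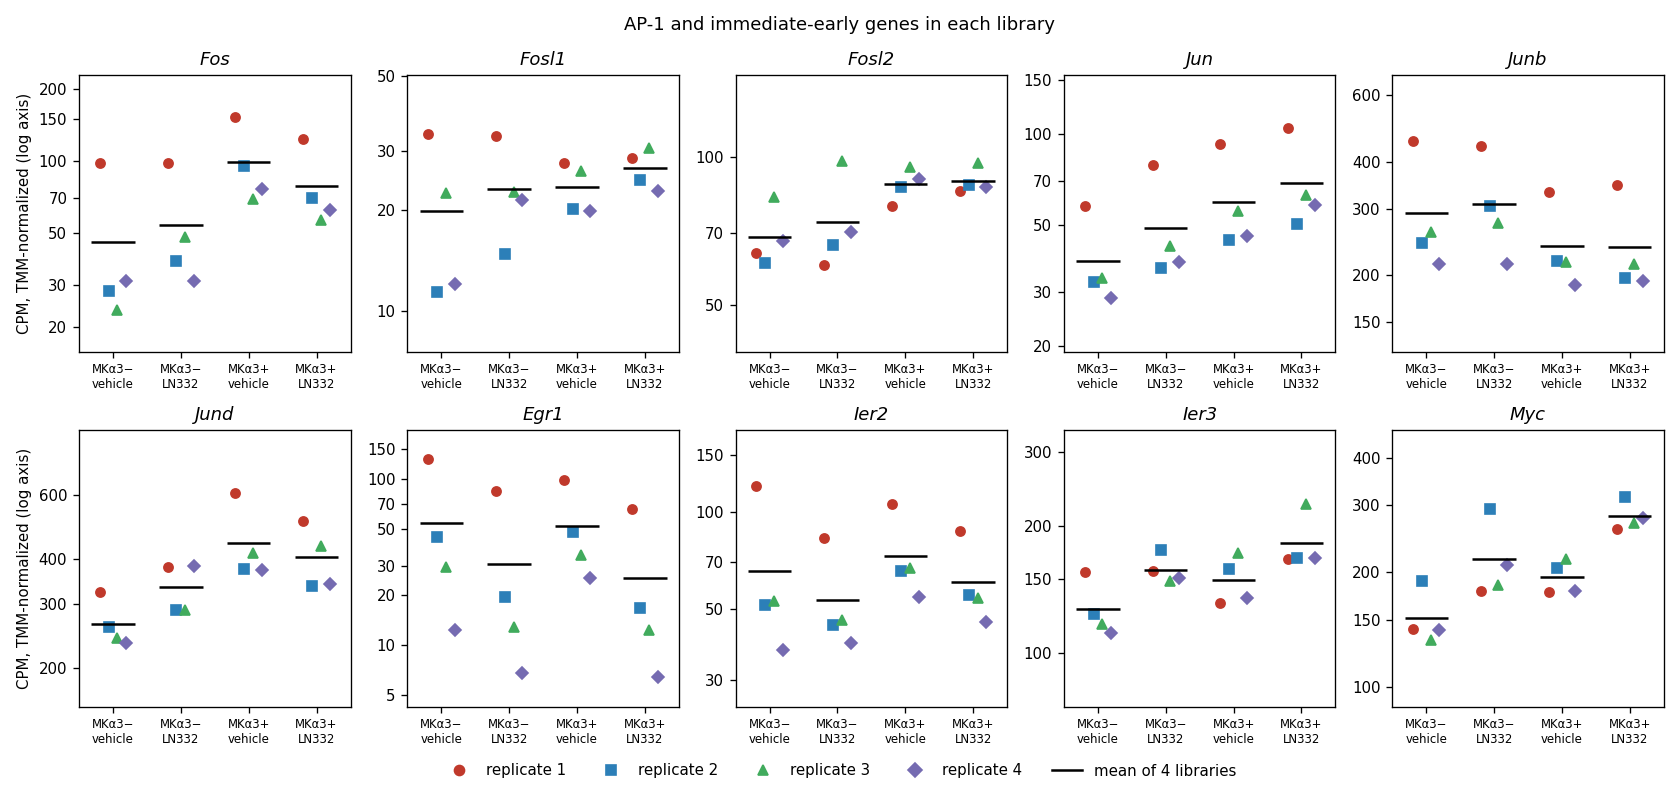
CPM (TMM-normalized, log axis) of the 10 genes in each of the 16 libraries, by group. Each point is 1 library, its shape and colour give the replicate number, and the black line is the mean of 4 libraries. *Fos*, *Jun*, *Junb*, *Egr1* and *Ier2* were highest in replicate 1 of all 4 groups, and *Jund* of vehicle-treated MKα3+ cells, at 373 to 607 CPM, lay above that of vehicle-treated MKα3− cells, at 234 to 323 CPM.

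Whether α3 changes the level of these genes was asked first in vehicle. MKα3+ cells had more *Fos* and *Jund* mRNA than MKα3− cells, and these were the 2 genes of the 10 that were called, both higher. Over all 14474 genes tested, 18.5% were called in this comparison (1582 higher and 1094 lower), so 2 of 10 is near the background. In bulk RNA a larger number of cells with the mRNA and more mRNA per cell cannot be told apart.

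Among the FOS family, *Fos*, the prototype subunit, was at 98.4, 28.5, 23.7 and 31.3 CPM in replicates 1 to 4 of vehicle-treated MKα3− cells. In vehicle-treated MKα3+ cells it was at 153, 95.6, 69.5 and 75.9 CPM. Replicate 1 was the highest library of each group. The groups overlapped through replicate 1 of MKα3− cells, which lay above replicates 2, 3 and 4 of MKα3+ cells. The means were 45.5 ± 35.4 and 98.6 ± 38.2 CPM (SD, n = 4 each). On the log2 scale *Fos* was higher by 1.30 (SE 0.41, 95% confidence interval 0.44 to 2.16, adjusted p = 0.0236 from limma-voom), or 2.47-fold. The call was lost without replicate 2, 3 or 4 of vehicle-treated MKα3− cells (adjusted p = 0.0670, 0.0842 and 0.0589) or without replicate 1 of vehicle-treated MKα3+ cells (adjusted p = 0.0727), and with edgeR (adjusted p = 0.0678) and DESeq2 (adjusted p = 0.0782). Without the 4 libraries of number 1 *Fos* was higher by 1.52 (SE 0.16, adjusted p = 1.41e-05 from limma-voom). With replicate number added to the fit as a block, *Fos* was higher by 1.28 (SE 0.16, adjusted p = 1.59e-05 from limma-voom). With the block it was also called by edgeR (adjusted p = 3.15e-05) and DESeq2 (adjusted p = 3.83e-12). Quality weights in limma-voom kept the call (adjusted p = 0.000740). Numbers were not taken to pair libraries in this comparison, so fits with the block are alternatives. An exact two-sided permutation test of the means over all libraries gave p = 0.114, where the smallest p that 4 against 4 allows is 0.0286.

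*Fosl1* and *Fosl2* encode FRA-1 and FRA-2, FOS family proteins without the strong activation domain of FOS. *Fosl2* was at 60.9 to 83.1 CPM in vehicle-treated MKα3− cells and 79.3 to 95.6 CPM in vehicle-treated MKα3+ cells, higher by 0.36 on the log2 scale (SE 0.13, adjusted p = 0.0444 from limma-voom), below the minimum fold change for a call. *Fosl1* was at 11.4 to 33.6 and 19.9 to 27.5 CPM and its difference did not pass the test (log2 fold change 0.37, SE 0.29, adjusted p = 0.361).

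Among the JUN family, *Jund*, whose protein is the JUN subunit typically present in resting cells, was at 323, 260, 242 and 234 CPM in replicates 1 to 4 of vehicle-treated MKα3− cells. In vehicle-treated MKα3+ cells it was at 607, 375, 417 and 373 CPM. The groups did not overlap, and *Jund* was the only gene of the 10 of which this was true, while 32.9% of all genes did not overlap in this comparison. *Jund* was higher by 0.72 on the log2 scale (SE 0.17, adjusted p = 0.00415 from limma-voom), or 1.65-fold, and the exact permutation p was 0.0286, the smallest possible. Of the 31 alternatives, 30 kept the call and the other was the higher fold change minimum of 1, with log2 fold changes between 0.56 and 0.82. Without the libraries of number 1 it was 0.66 (SE 0.13, adjusted p = 0.00147).

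*Jun*, the classical partner of FOS, was at 57.9, 32.5, 33.5 and 28.7 CPM in vehicle-treated MKα3− cells. It was at 92.5, 44.7, 55.5 and 45.9 CPM in vehicle-treated MKα3+ cells, with replicate 1 highest in each group and the groups overlapping. *Jun* was higher by 0.64 on the log2 scale (SE 0.29, adjusted p = 0.114 from limma-voom), and it was higher in MKα3+ cells in 4 of 4 pairs of libraries with the same number. With replicate number as a block, an alternative here, *Jun* was called (log2 fold change 0.64, SE 0.07, adjusted p = 3.51e-06 from limma-voom), as were 3056 of all genes. Without the libraries of number 1, *Jun* was called as well (log2 fold change 0.62, SE 0.11, adjusted p = 0.00127), which made 3 called genes with *Fos* and *Jund*, where 18.8% of all genes were called. *Junb*, whose protein can oppose JUN on some targets, went the other way without passing the test, at 213 to 453 CPM in the null line and 188 to 332 CPM with α3 (log2 fold change −0.26, SE 0.26, adjusted p = 0.479).

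The remaining genes were not called in vehicle. *Egr1*, a zinc finger factor induced through SRF and ETS factors, was at 12.3 to 131 CPM without α3 and 25.1 to 98.5 CPM with it, with a confidence interval of the log2 fold change from −1.25 to 1.74. *Ier2*, a small nuclear protein, was at 37.2 to 120 and 54.2 to 106 CPM. *Ier3*, a regulator of survival and ERK signaling rather than a DNA-binding factor, was at 112 to 155 and 131 to 173 CPM. *Myc*, the E-box factor of growth and proliferation, was at 133 to 189 and 177 to 216 CPM (log2 fold change 0.37, SE 0.14, adjusted p = 0.0624 from limma-voom). The values of these 4 genes overlapped between the lines.

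**Figure D2:**
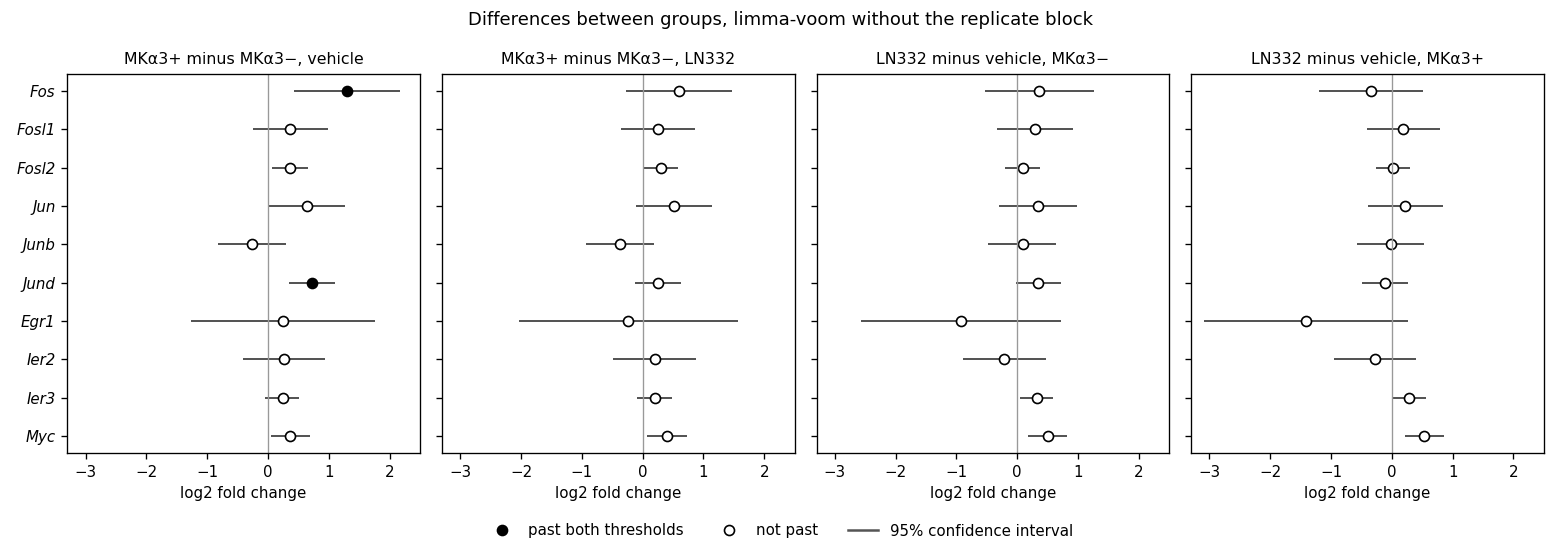
Log2 fold changes of the 10 genes in 4 comparisons, from limma-voom over 16 libraries. Points are the estimates, lines are 95% confidence intervals, and filled points passed both thresholds. Filled points are *Fos*, at 1.30, and *Jund*, at 0.72, in vehicle, and *Egr1* has the widest intervals.

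In LN332 the difference between the lines had the same sign for *Fos*, *Jun* and *Jund*, but 0 of the 10 genes were called with limma-voom, against 20.6% of all genes (1696 higher and 1291 lower). At an unadjusted p under 0.05 there were 2 of the 10 (*Fosl2* and *Myc*) and 6145 of the 14474 genes, and edgeR and DESeq2 also called 0. *Fos* was at 98.1, 37.9, 48.1 and 31.3 CPM without α3 and at 124, 70.1, 56.3 and 62.4 CPM with it. It was higher in MKα3+ cells in 4 of 4 pairs with the same number, with overlapping groups, and by 0.60 on the log2 scale (SE 0.41, adjusted p = 0.276). *Jun* was at 78.8, 36.1, 42.7 and 37.9 CPM against 104, 50.5, 62.9 and 58.3 CPM (log2 fold change 0.51, SE 0.29, adjusted p = 0.187). Without the libraries of number 1, both were called, *Fos* at 0.69 (SE 0.16, adjusted p = 0.00438) and *Jun* at 0.56 (SE 0.11, adjusted p = 0.00190), and 23.1% of all genes were. *Jund* differed by 0.26 on the log2 scale (SE 0.17, adjusted p = 0.258), with MKα3− values of 288 to 383 CPM and MKα3+ values of 337 to 508 CPM. *Myc* passed the adjusted p but not the fold change minimum, at 0.40 (SE 0.15, adjusted p = 0.0432), from 179 to 293 CPM without α3 and from 260 to 316 CPM with it. A lone library decided other calls here: without replicate 1 of LN332-treated MKα3− cells *Jun* was called, and without replicate 2 of that group *Myc* was. In this comparison 26.5% of all genes did not overlap between the groups and 0 of the 10 did not.

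The make-up of each AP-1 family was compared within libraries, which removes library scaling. Shares are of the summed CPM per kb of the 3 FOS or the 3 JUN genes, and they are descriptions without a test. In vehicle, *Junb* made up 54.2%, 44.8%, 48.0% and 44.1% of JUN family mRNA in replicates 1 to 4 of MKα3− cells and 31.9%, 33.5%, 30.9% and 30.3% in MKα3+ cells. *Jund* made up 41.9%, 51.8%, 48.5% and 52.5% in MKα3− cells and 63.1%, 62.6%, 64.6% and 65.4% in MKα3+ cells. The *Jund* and *Junb* shares of the lines did not overlap in vehicle, and the spread within MKα3+ cells was small. In LN332 the *Jund* share was 45.9%, 49.1%, 51.1% and 63.8% in MKα3− cells and 57.6%, 62.0%, 65.4% and 62.1% in MKα3+ cells, where replicate 4 of MKα3− cells lay inside the MKα3+ range. *Jun* was a minor part throughout, from 3.21% to 6.17% of the family. In the FOS family, *Fos* made up 46.9 ± 12.9% in vehicle-treated MKα3− and 62.9 ± 8.31% in vehicle-treated MKα3+ cells (SD, n = 4), with overlapping ranges.

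**Figure D3:**
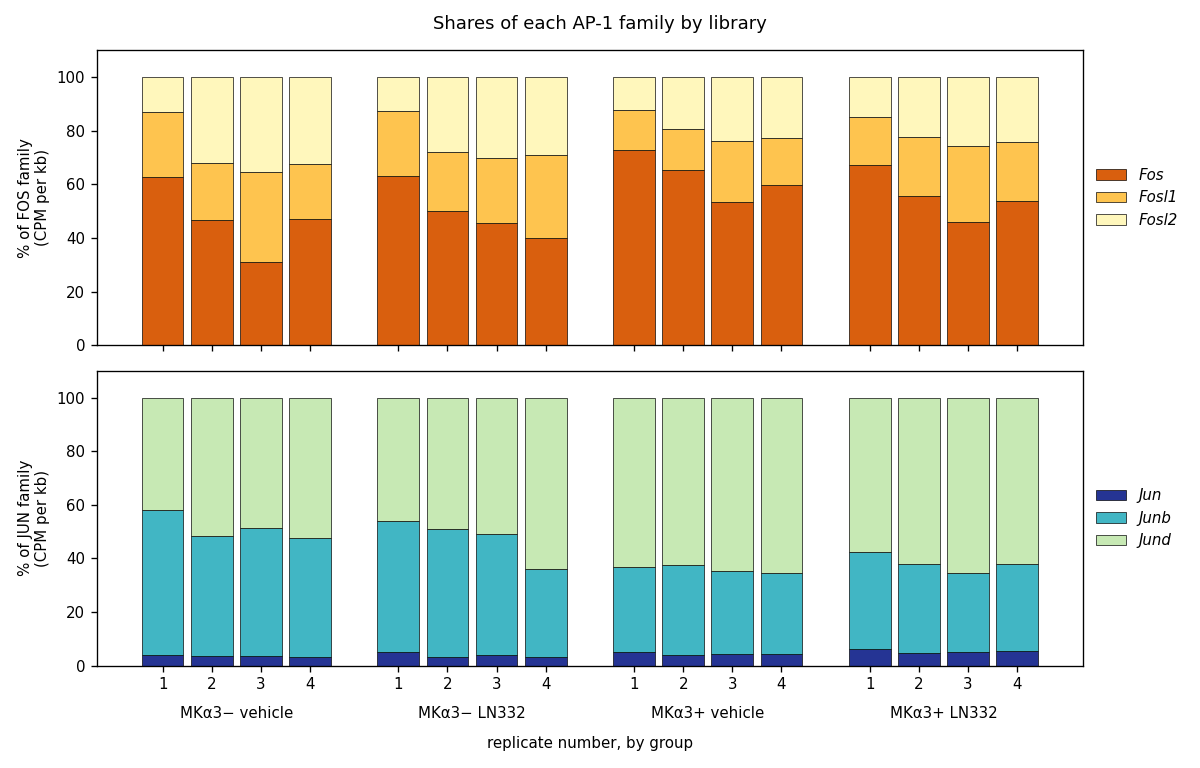
Share of each gene in the summed CPM per kb of the FOS family (top) and the JUN family (bottom), in percent, for each of the 16 libraries. Each bar is 1 library, labelled by replicate number within its group. *Jund* is 62.6% to 65.4% of the JUN family in vehicle-treated MKα3+ cells and 41.9% to 52.5% in vehicle-treated MKα3− cells.

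The response to LN332 was tested in each line, with the 2 LN332 groups and the 2 vehicle groups also serving the comparisons between lines. In MKα3+ cells *Egr1* was lower and *Myc* higher with LN332 in 4 of 4 pairs of libraries with the same replicate number. Without a block for the number, 0 of the 10 genes were called by limma-voom and 0.187% of all genes were. The unadjusted p was under 0.05 for 2 of the 10 (*Ier3* and *Myc*) and 1388 of all genes, edgeR called 0, and DESeq2 called *Myc* (adjusted p = 0.0340). With the number as a block, *Egr1* and *Myc* were called, while 1.51% of all genes were (146 higher and 72 lower).

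In MKα3+ cells *Egr1* was at 98.5, 48.1, 34.9 and 25.1 CPM in replicates 1 to 4 with vehicle and at 65.5, 16.8, 12.3 and 6.41 CPM with LN332. The groups overlapped, with a wide spread over the replicates of each, and the LN332 to vehicle ratio was 0.665, 0.349, 0.354 and 0.255 in pairs 1 to 4. On the log2 scale *Egr1* differed by −1.41 without the block (SE 0.79, adjusted p = 0.619 from limma-voom) and −1.29 with it (SE 0.19, adjusted p = 0.00303). The unblocked value rested on single libraries, from −0.93 without replicate 4 of LN332 to −2.05 without replicate 1 of LN332. Without the number 1 libraries it was −1.67 unblocked (SE 0.49, adjusted p = 0.148) and −1.64 with the block (adjusted p = 0.00118). Unblocked and without these libraries, 0 of the 10 genes and 0.602% of all genes were called.

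*Myc* was at 177, 205, 216 and 178 CPM with vehicle in MKα3+ cells and at 260, 316, 269 and 277 CPM with LN332. The groups did not overlap, and *Myc* was the only gene of the 10 of which this was true, against 9.66% of all genes. Its ratio was 1.47, 1.54, 1.24 and 1.56 in the 4 pairs. On the log2 scale *Myc* differed by 0.53 without the block (SE 0.15, adjusted p = 0.162 from limma-voom) and 0.53 with it (SE 0.10, adjusted p = 0.0102), or 1.45-fold, and the exact permutation p was 0.0286.

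Other genes moved little in MKα3+ cells. *Fos* was lower in 4 of 4 pairs, at 0.733 to 0.822 of vehicle (log2 fold change −0.34, adjusted p = 0.907 without and 0.311 with the block), and *Ier2* was lower in 4 of 4, at 0.805 to 0.842 (adjusted p = 0.900 and 0.158). *Jun* was higher in 4 of 4 pairs, at 1.13 to 1.27 of vehicle (adjusted p = 0.913 and 0.103), as were *Ier3*, at 1.06 to 1.31, and *Fosl1*, at 1.04 to 1.22. None of these 5 passed the test in either fit. *Fosl2*, *Junb* and *Jund* had ratios on both sides of 1, with confidence intervals of the log2 fold change of −0.25 to 0.29, −0.55 to 0.51 and −0.48 to 0.25.

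In MKα3− cells, 0 of the 10 genes were called with LN332 by limma-voom without the block, against 0.304% of all genes (35 higher and 9 lower). The unadjusted p was under 0.05 for 2 of the 10 (*Ier3* and *Myc*) and 2023 of all genes, edgeR called 0 and DESeq2 called *Myc* (adjusted p = 0.0324). *Egr1* was at 131, 44.3, 29.4 and 12.3 CPM with vehicle and 83.9, 19.5, 12.8 and 6.79 CPM with LN332, with ratios of 0.640, 0.441, 0.434 and 0.551 (log2 fold change −0.93, SE 0.77, adjusted p = 0.646). *Myc* was at 142, 189, 133 and 141 CPM with vehicle and 179, 293, 185 and 209 CPM with LN332, with ratios of 1.26, 1.55, 1.39 and 1.48 (log2 fold change 0.50, SE 0.14, adjusted p = 0.141). *Egr1* was thus lower and *Myc* higher in 4 of 4 pairs in this line too, and the groups of both genes overlapped. Numbers were not taken to pair libraries in this line, so its ratios and counts of pairs are descriptions. As an alternative, the fit with the block called *Egr1* (log2 fold change −0.91, SE 0.18, adjusted p = 0.0141 from limma-voom). In that fit *Myc* was at 0.50 (SE 0.10, adjusted p = 0.0107) and did not pass the fold change minimum, and 259 of all genes were called. The size of the *Egr1* value without the block rested on single libraries, from −0.34 without replicate 1 of vehicle to −1.62 without replicate 1 of LN332. *Jun*, *Jund* and *Ier3* were higher in 4 of 4 pairs, with ratios of 1.11 to 1.36, 1.12 to 1.63 and 1.01 to 1.41, and did not pass the test. Of all genes, 4.95% did not overlap between LN332 and vehicle in this line, and 0 of the 10 did not. Unblocked and without the number 1 libraries, 0 of the 10 were called and 1.13% of all genes were.

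Averaged over both lines, *Myc* was the 1 gene called, higher by 0.52 on the log2 scale (SE 0.10, adjusted p = 0.00943 from limma-voom), or 1.43-fold, where 1.35% of all genes were called (133 higher and 63 lower). Leaving out 1 library could take *Myc* below the fold change minimum while its adjusted p stayed at most 0.0252. This was so without replicate 2 of LN332-treated MKα3− cells (0.44), replicate 3 of vehicle-treated MKα3− cells (0.49), replicate 2 of LN332-treated MKα3+ cells (0.48), or replicate 1 (0.49) or 4 (0.50) of vehicle-treated MKα3+ cells. *Egr1* averaged −1.17 (SE 0.55, adjusted p = 0.251), and −1.10 with the replicate block, where it was called (SE 0.13, adjusted p = 0.000172), and *Ier3* 0.30 (SE 0.09, adjusted p = 0.0618). Without the number 1 libraries both *Myc* (0.54, adjusted p = 0.0154) and *Egr1* (−1.35, SE 0.35, adjusted p = 0.0318) were called, as were 2.40% of all genes.

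The difference between the LN332 responses of the lines was tested as an interaction. Of the 10 genes 0 were called by limma-voom, edgeR or DESeq2, as were 0.00% of all genes, and 0 of the 10 and 164 of all genes had an unadjusted p under 0.05 with limma-voom. The intervals were wide for *Egr1*, whose response differed by −0.48 on the log2 scale (95% confidence interval −2.81 to 1.85), and for *Fos*, by −0.70 (−1.91 to 0.51). That of *Myc* was 0.03 (−0.39 to 0.46). Without the number 1 libraries 0 of the 10 genes were called as well. A dependence of the LN332 response on α3 was not detectable for these genes at 16 to 24 h with 4 libraries a group. Differences within these intervals remain possible, and earlier times were not measured.

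**Figure D4:**
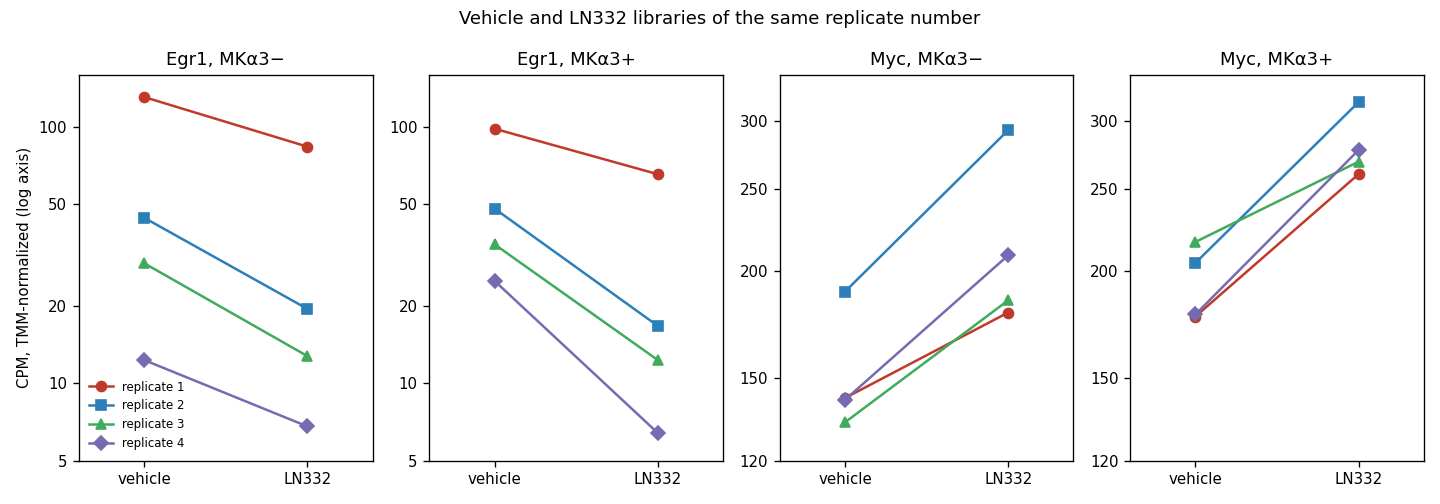
CPM (TMM-normalized, log axis) of *Egr1* and *Myc* with vehicle and with LN332 in each line. Each line joins the 2 libraries with the same replicate number. *Egr1* is lower with LN332 in 4 of 4 pairs of each line, at 0.255 to 0.665 of vehicle in MKα3+ cells, and *Myc* is higher in 4 of 4 pairs of each line.

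Most of these genes also differed between replicate numbers. Each number occurs once in every group, and the test asks whether the libraries of a number deviate together after the group is accounted for. By the F test of limma-voom, 9 of the 10 genes differed by number at an adjusted p under 0.05, against 23.8% of all genes, and *Ier3* did not (adjusted p = 0.483). Among the 14474 genes ranked by p, *Jun* was number 3 (adjusted p = 2.99e-06), *Egr1* number 6 (7.15e-06), *Junb* number 13 (2.14e-05), *Ier2* number 21 (2.99e-05) and *Fos* number 86 (0.000191). These 5 genes were highest in replicate 1 in 4 of 4 groups, and *Egr1*, *Junb* and *Ier2* were also lowest in replicate 4 in 4 of 4.

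On the log2 scale *Egr1* had the widest differences of the 10, with means over the 4 groups of 94.7, 32.2, 22.4 and 12.7 CPM for numbers 1 to 4. Against number 1, its log2 level differed by −1.64 in number 2, −2.16 in number 3 and −3.01 in number 4, beside −1.17 for LN332 averaged over the lines. In a group, replicate 1 was 2.74 to 6.44 times the mean of the others for *Egr1*, 1.91 to 3.53 times for *Fos*, 1.82 to 2.02 times for *Jun*, 1.60 to 1.90 times for *Junb* and 1.69 to 2.55 times for *Ier2*. The ratio of *Jun* was nearly the same in the 4 groups. *Fosl2* and *Myc* had another order: *Fosl2* was highest in replicate 3 in 4 of 4 groups (adjusted p = 0.0126), and *Myc* was highest in replicate 2 in 3 of 4 and lowest in replicate 1 in 3 of 4 (adjusted p = 0.0240). *Fosl1* (adjusted p = 0.00872) and *Jund* (adjusted p = 0.0146) were highest in replicate 1 in 3 of 4 groups each.

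The libraries of number 1 differed from the others in more than these genes. Of the 3446 genes that differed by number, 1445 (41.9%) were highest in number 1. Mitochondrial ribosomal RNA took 0.133% to 0.188% of their counts and 0.0301% to 0.106% in the other 12 libraries, without overlap, while all mitochondrial genes took 1.15% to 2.83% and 0.917% to 1.73%, and the ribosomal RNA gene *Rn45s* 0.594% to 1.42% and 0.502% to 0.868%. Total counts were alike, at 24962615 to 28087281 in number 1. The part of these measures in the levels of the genes was not tested, and neither the labels nor the methods say what a number stands for. Without the libraries of number 1 the F test still passed for *Egr1* (adjusted p = 0.00758) and *Ier2* (adjusted p = 0.0436) and for no other gene of the 10, where 265 of all genes passed.

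**Figure D5:**
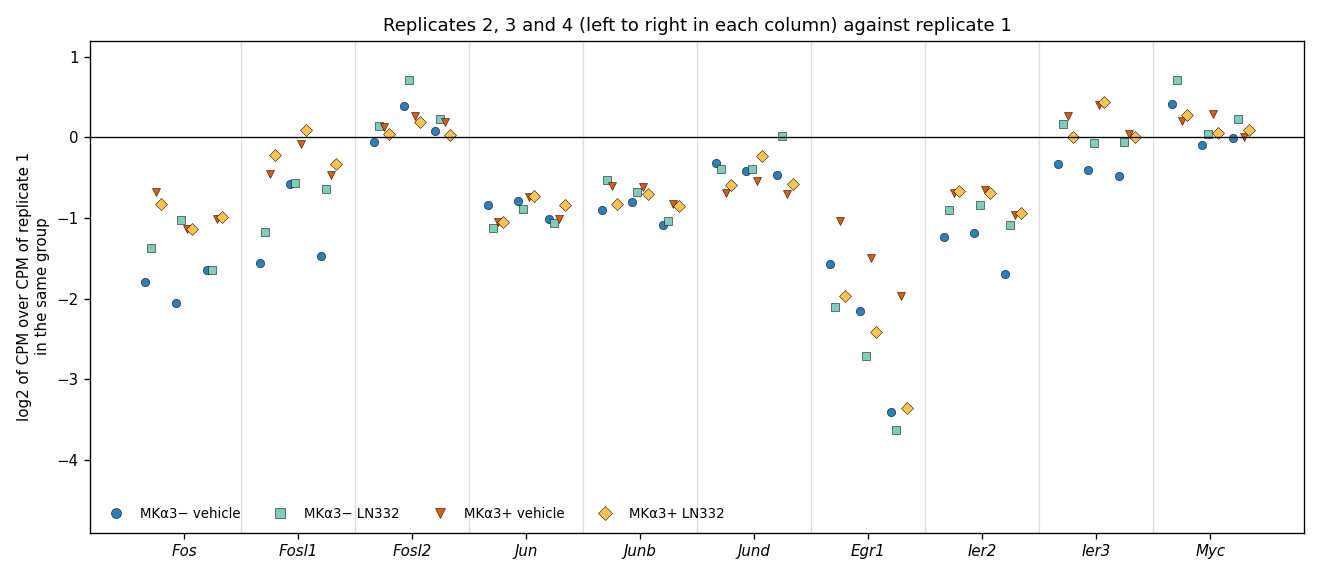
Log2 of the CPM of replicates 2, 3 and 4 (left to right for each gene) over the CPM of replicate 1 in the same group. Each point is 1 library, with colour and shape for the group, and points below 0 are lower than replicate 1. *Egr1* is lower in all 12 libraries, by the widest margins, whereas *Fosl2*, *Ier3* and *Myc* lie around or above 0.

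Genes of the same pathways were counted from lists of other genes. Of 28 other immediate-early genes measured, 15 differed by replicate number (53.6%, beside 23.8% of all genes), and 13 of those were highest in number 1. Among them, *Ier5*, a paralog of *Ier2*, had means of 244, 115, 117 and 104 CPM in numbers 1 to 4 (adjusted p = 7.15e-06), *Dusp1*, a phosphatase of MAP kinases, 105, 33.2, 48.8 and 35.9 CPM (adjusted p = 2.14e-05), and *Zfp36*, which destabilizes AU-rich mRNAs, 197, 106, 107 and 95.5 CPM (adjusted p = 4.71e-06). *Nr4a1*, an orphan nuclear receptor (22.3, 18.9, 20.3 and 15.8 CPM, adjusted p = 0.393), and *Klf4* (103, 115, 120 and 123 CPM, adjusted p = 0.399) did not pass the test. Of 22 keratinocyte AP-1 target genes, 16 differed by number, and of 13 partner and related bZIP genes, 9. Of 17 MYC target genes, 9 differed by number and 0 were highest in number 1, the same counts as for 17 upstream SRF, ETS and kinase genes, and 2 of 11 MYC network genes differed.

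Between the lines in vehicle, 5 other immediate-early genes were higher and 2 lower in MKα3+ cells, of 28. Over all genes 18.5% were called in vehicle, the background for each list count in vehicle here. *Ccn1* and *Ccn2*, matricellular genes that are also targets of YAP, rose from 156 ± 36.8 to 415 ± 85.1 CPM (log2 fold change 1.42, SE 0.19, adjusted p = 3.06e-05 from limma-voom) and from 33.4 ± 8.07 to 77.5 ± 9.10 CPM (1.24, SE 0.22, adjusted p = 0.000360). *Btg1*, an antiproliferative gene, fell by 0.59 on the log2 scale (SE 0.13, adjusted p = 0.00292). Of the 22 AP-1 targets, 4 were higher and 0 lower, near the 18.5% of all genes called, with a median log2 fold change of 0.27 beside 0.01 over all genes. With LN332, 4 of them were higher and 2 lower in MKα3+ cells. *Plau*, the urokinase protease, was at 596 ± 209 CPM without α3 and 1431 ± 187 CPM with it (log2 fold change 1.31, SE 0.23, adjusted p = 0.000361), and *Timp1*, a metalloproteinase inhibitor, rose by 1.10 (SE 0.15, adjusted p = 3.80e-05). Among 13 bZIP genes, 2 were higher and 2 lower: *Batf3* (1.68 ± 0.357 and 8.08 ± 0.838 CPM) and *Jdp2*, a repressor that binds AP-1 sites (log2 fold change 0.80, SE 0.23, adjusted p = 0.0152), were higher, and *Batf2* (−2.93, SE 0.52, adjusted p = 0.000428) and *Maf* (−0.62, SE 0.20, adjusted p = 0.0244) were lower. Upstream, *Elk1*, an ETS partner of SRF, fell by 0.68 (SE 0.13, adjusted p = 0.000802) and *Mapk7*, which encodes ERK5, fell by 0.60 (SE 0.10, adjusted p = 0.000245), while the other 15 were not called. In the MYC network, *Mxd1*, an antagonist of MYC, fell by 0.70 (SE 0.16, adjusted p = 0.00351) and *Mga* by 0.57 (SE 0.14, adjusted p = 0.00429). Of the 17 MYC targets only *Odc1*, the first enzyme of polyamine synthesis, was called in vehicle, higher by 0.90 (SE 0.20, adjusted p = 0.00269). With LN332, 4 of the 17 were higher and 0 lower in MKα3+ cells, where 20.6% of all genes were called.

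With LN332 averaged over the lines, 4 of 28 other immediate-early genes rose and 0 fell: *Ccn2* by 1.73 on the log2 scale (SE 0.15, adjusted p = 3.17e-05 from limma-voom), *Gadd45b*, a stress sensor, by 0.87 (SE 0.12, adjusted p = 0.00170), *Ccn1* by 0.84 (SE 0.14, adjusted p = 0.00358) and *Klf6* by 0.56 (SE 0.09, adjusted p = 0.00303). *Atf3*, a bZIP factor of the stress response, rose by 0.53 (SE 0.14, adjusted p = 0.0389), the only one of 13 bZIP genes. Over all genes 1.35% were called in this average. Of the AP-1 targets *Tnfrsf12a* rose by 0.62 (SE 0.08, adjusted p = 0.00113) and *Krt16*, a keratin of activated epidermis, by 0.55 (SE 0.13, adjusted p = 0.0247). None of the 17 MYC targets was called by limma-voom, with a median log2 fold change of 0.20 beside −0.00 over all genes, while *Myc* itself was. *Egr1* had the opposite sign to the immediate-early genes called, and was called in this average only in fits with the block or without the number 1 libraries.

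Over the 16 libraries, log2 CPM of each gene was compared with that of 11792 other genes, which share the groups and the replicate numbers, so these correlations are descriptions. *Junb* was most like *Ier5* (r = 0.974), *Jun* like *Gm14137* (r = 0.962) and *Ier2* like *Zfp36* (r = 0.958). *Fosl2* was most like *Sdc1*, a syndecan of keratinocytes (r = 0.953), *Egr1* like *Gbp6* (r = 0.944), a guanylate-binding protein gene, and *Jund* like *Serp2* (r = 0.936). *Myc* was most like *Rbm39* (r = 0.936), *Fos* like *Akr1c13* (r = 0.923), *Fosl1* like *Nectin4* (r = 0.905) and *Ier3* like *Plk2* (r = 0.858). Within groups, after the group means were removed, *Junb* went with *Ier2* (r = 0.96, n = 16 libraries), *Egr1* (r = 0.94) and *Jun* (r = 0.93), whereas *Myc* went against *Fosl1* (r = −0.60) and *Fosl2* against *Egr1* (r = −0.46). Differences between replicate numbers were not removed and remain in these values.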

How the data were processed

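RNA-seq was done on 16 libraries, 4 in each of the 4 groups, and groups and replicate numbers were taken from the sample labels. The authors aligned reads to mm10 (Rsubread) and used featureCounts with the Entrez gene models it ships with. The deposited values are raw, unnormalized counts of 14474 genes. Whether counting used strand is not given in the sources used here. The study's CPM filter (above 0.5 in 3 or more libraries) removed 0 genes. Here the counts were normalized by TMM (edgeR 4.0.16) and tested with limma-voom (limma 3.58.1, R 4.3.3) in 1 fit over all libraries, with Benjamini-Hochberg adjustment over all genes. SE are those of limma. Exact permutation tests compared means of CPM of 4 libraries against 4, two-sided, over 70 splits.

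The genes and lists were chosen with earlier results of these data known. Named genes are the 10 chosen, list genes past the threshold (the 2 largest in each direction between the lines in vehicle and mean log2 CPM not under 1, and all in an LN332 comparison), and the gene most like each of the 10. *Ier5*, *Dusp1*, *Zfp36*, *Nr4a1* and *Klf4* were named after their values by number were seen. Exon lengths and overlaps are from GENCODE M21, and upstream sequences from RefSeq.

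The replicate numbers were taken to pair libraries only for LN332 against vehicle in MKα3+ cells, where libraries of the same number deviated together (r = 0.62, 0.47, 0.20 and 0.58, each over 0.1). In the other comparisons at least 1 pair was at 0.1 or below. Counts of pairs with the same number are descriptions there, and fits with the block are alternatives.

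Totals of 21735708 to 29338370 counts limit precision less than the spread between replicates. No replicate pair agreed within sampling noise (smallest chi-square per degree of freedom 5.45, 24 pairs). The procedure was run on simulated counts, and those with an LN332 change held no effect of replicate number, unlike the deposited counts. The alternatives tried were DESeq2 1.42.0, the quasi-likelihood test of edgeR, DESeq2 size factors or library size alone, no filter or at least 10 counts in every library, a replicate block, quality weights, only the groups compared, other fold change minimums and each library left out. Leaving out the libraries of number 1, the block in edgeR or DESeq2, and the test of numbers with 1 library left out were added after seeing the data.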

Additional observations from a re-analysis of the deposited data

Results flagged for a closer look

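Within groups of 4 libraries, 8 of the 40 combinations of gene and group held a library whose gap to its nearest neighbour exceeded Dixon's critical value, where chance alone would give about 1 in 20, or 2 of 40. In 6 of these 8 combinations the library was of replicate number 1, and the same library could be flagged for more than 1 gene. In vehicle-treated MKα3− cells, *Fos* in replicate 1 was at 98.4 CPM (others 23.7 to 31.3) and *Jun* in replicate 1 at 57.9 CPM (others 28.7 to 33.5), and *Myc* in replicate 2 was at 189 CPM (others 133 to 142). In LN332-treated MKα3− cells, replicate 1 was at 78.8 CPM for *Jun* (others 36.1 to 42.7), 83.9 CPM for *Egr1* (others 6.79 to 19.5) and 82.8 CPM for *Ier2* (others 39.1 to 46.2). In LN332-treated MKα3+ cells, *Junb* in replicate 1 was at 347 CPM (others 192 to 213) and *Ier3* in replicate 3 at 226 CPM (others 167 to 168). The cause of these values was not tested.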

How the results depend on the processing

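Of 40 log2 fold changes (10 genes in the 4 comparisons of 2 groups), 32 kept their sign under every alternative run and 8 did not. Between the lines in vehicle, 2 genes were called, 1 with edgeR or DESeq2 (*Jund*), 1 at a fold change minimum of 1 (*Fos*), 1 to 3 when leaving out 1 library, 3 without the number 1 libraries and 4 when these were left out with the block. With the replicate block in limma-voom, edgeR or DESeq2, 3 were called (*Fos*, *Jun* and *Jund*), and the same 3 with quality weights. By adjusted p alone 3 were called (*Fos*, *Fosl2* and *Jund*). Of all 14474 genes, 2653 were called with edgeR, 2807 with DESeq2 and 1362 at the minimum of 1. With the block 3056, 3001 and 3084 were called in limma-voom, edgeR and DESeq2, with quality weights 3249 and by adjusted p alone 4115. Without the number 1 libraries 2719 were, and 2958 with the block as well. Between the lines in LN332 the 0 calls became 2 with the replicate block (*Fos* and *Jun*), in limma-voom, edgeR and DESeq2, 2 without the number 1 libraries with or without the block, 1 with quality weights (*Junb*), 1 by adjusted p alone (*Myc*) and 0 to 1 when leaving out 1 library. Of all genes 3393, 3347 and 3406 were called with the block in limma-voom, edgeR and DESeq2. Without the number 1 libraries 3335 were, and 3559 with the block as well. Quality weights gave 3331 and adjusted p alone 4654. For LN332 in MKα3+ cells the 0 calls became 1 with DESeq2, quality weights or only the groups compared (*Myc*), and 2 with the block in limma-voom, edgeR, DESeq2 and without number 1 (*Egr1* and *Myc*), and stayed 0 to 0 when leaving out 1 library. In MKα3− cells they became 1 with DESeq2 or quality weights (*Myc*), 1 with the replicate block in limma-voom (*Egr1*), 2 with the block in edgeR, DESeq2 and without number 1, and stayed 0 to 0 when leaving out 1 library. For the average of the lines the 1 call became 0 with library size alone or a fold change minimum of 1, 2 with the block in limma-voom, edgeR and DESeq2, 2 without number 1 with or without the block, and 0 to 1 when leaving out 1 library. In this average 363, 356 and 377 of all genes were called with the block in limma-voom, edgeR and DESeq2. Without the number 1 libraries 347 were, and 505 with the block as well. Library size alone gave 258 and the fold change minimum of 1 gave 13. Outside LN332 in MKα3+ cells libraries were not taken as pairs, since same-number correlations reached down to 0.09, −0.05 and −0.01. Still, 7, 6 and 5 of 8 libraries there correlated best with their own number, beside 7 of 8 for LN332 in MKα3+ cells. With the block, the 22 AP-1 targets gave 7 higher and 2 lower between the lines in vehicle, where 3056 of all genes were called. The interaction stayed at 0 under every alternative. The test of replicate numbers called 9 genes, 8 to 9 when leaving out 1 library and 2 without number 1. *Egr1* between the lines in vehicle turned from lower to higher in the mean on the log2(CPM + 1) scale (exact permutation p = 0.914 and 0.829). Over all genes, LN332 in MKα3+ cells gave 27 calls (0 to 47 when leaving out 1 library, 218 with the block) and in MKα3− cells 44 (1 to 150, and 259). DESeq2 gave 123 in MKα3+ and 165 in MKα3− cells, and quality weights 454 and 123. Only the groups compared gave 106 in MKα3+ cells. The block gave 201 in edgeR, 291 in DESeq2 and 248 without number 1 in MKα3+ cells. In MKα3− cells it gave 242, 348 and 345. The causes were not tested.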
